A study of Mus musculus with 18 samples.

Results

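Krt8, Krt18, Krt19 and Krt7, the genes of the simple epithelial keratins, were taken by gene symbol from the count tables of 18 RNA-seq libraries. The symbols gave 4 of the 53672 listed genes, and all 4 members passed the filter on low counts among the 18791 genes tested. The libraries came from E14TG2a mouse embryonic stem cells (ESCs) in which both endogenous alleles of Hdac1 and Hdac2 carry lox sites. OHT (4-hydroxytamoxifen) induces deletion of the endogenous genes, and each line carries a stable transgene, introduced with piggyBac, that encodes Flag-tagged HDAC1. The transgene was wild type in HDAC1-WT cells, and it carried 1 amino acid substitution in HDAC1–E63R and HDAC1–Y48E cells. All lines were grown on gelatine with LIF, and each was sequenced untreated and after 1 µM OHT, with 3 libraries in each of the 6 groups. By this design the untreated groups hold the endogenous enzymes and the transgene together, whereas the OHT groups depend on the transgene. The labels give 5 days of OHT, and the study's methods give 24 h of OHT followed by 4 days without it. Each form of HDAC1 is represented by 1 stable line, and a difference between lines cannot be told apart from other differences between the stable lines. The study describes the 3 libraries of a group as biological replicates, whereas the labels do not say whether they came from separate cultures, and p-values measure the spread between these libraries.

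Keratins are the intermediate filament proteins of epithelia and form obligate pairs of 1 type II and 1 type I protein. KRT8 and KRT7 are type II, KRT18 and KRT19 are type I, and KRT8 with KRT18 is the pair that appears first in the mammalian embryo, in trophectoderm and other simple epithelia. KRT19 and KRT7 join them in ducts and other simple epithelia.

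In mm10, Krt8 lies at chr15:101996698-102004482 on the minus strand with 9 exons, and Krt18 lies at chr15:102028180-102032027 on the plus strand with 7 exons. Their starts are 23.7 kb apart and the genes point away from each other. Krt7 is on the same chromosome, at chr15:101411043-101430313 on the plus strand with 9 exons, within the type II keratin cluster. Krt19 lies at chr11:100140810-100148665 on the minus strand with 6 exons, within the type I cluster. In GENCODE M21 another gene, Gm36026, covers 5.16% of the exon bases of Krt8, and Gm671 covers 1.09% of those of Krt7. Neither was analysed here.

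Krt8 has a processed pseudogene, Krt8-ps, at chr7:23357125-23358069, which is named by the count tables as a gene of its own. It matched 941 bases of the Krt8 transcript with 98.62% identity and 13 mismatches, from base 244, which is the first coding base, to base 1184. The 60-base stretch with the most mismatches, bases 1060 to 1119 of the Krt8 transcript and 817 to 876 of Krt8-ps, is shown because it is where reads tell the copies apart most readily, with its 4 mismatches in capitals.
Krt8: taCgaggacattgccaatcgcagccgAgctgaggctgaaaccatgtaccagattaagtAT
Krt8-ps: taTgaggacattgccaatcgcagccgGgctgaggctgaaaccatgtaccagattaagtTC
Of the 1809 positions at which a read of 150 bases can lie in the Krt8 transcript, 154 (8.51%) were identical to Krt8-ps. No position of that length in Krt18, Krt19 or Krt7 was found in the transcript of another gene. Krt8-ps received between 0 and 2 counts in each untreated library and 0 in each HDAC1-WT OHT library. It received 3, 3 and 1 counts after OHT in the HDAC1–E63R line and 10, 9 and 3 in HDAC1–Y48E cells. Of the counts on Krt8 and Krt8-ps together, Krt8-ps held 0.0951% in HDAC1–E63R OHT cells (95% exact binomial interval 0.0382% to 0.196%) and 0.0922% in HDAC1–Y48E OHT cells (0.0578% to 0.140%). Moving these counts to Krt8 changed none of the calls on Krt8. The processed pseudogene of Krt18, Gm5200, matched 1269 bases with 90.15% identity and had at most 4 counts, in 1 library.

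The sequence before the start site is shown for Krt8 and Krt18, the type II and type I partners, as RefSeq gives it on GRCm38.p6. Bases that GENCODE places in an exon are left out, and the capitals mark a match to 1 of 6 motifs.
Krt8 promoter, minus strand, chr15:102004483-102004592: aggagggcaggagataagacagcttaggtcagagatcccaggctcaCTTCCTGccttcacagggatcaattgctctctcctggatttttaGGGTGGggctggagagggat
Krt18 promoter, plus strand, chr15:102027966-102028179: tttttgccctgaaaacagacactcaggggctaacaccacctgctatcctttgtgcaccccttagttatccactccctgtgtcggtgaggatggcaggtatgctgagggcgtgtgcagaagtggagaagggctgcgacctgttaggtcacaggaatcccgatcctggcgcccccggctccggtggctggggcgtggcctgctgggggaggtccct
The 250 bases before each start were searched on both strands for 6 motifs, and the share of the 32851 windows in the table that hold a motif is given with it. The TATA box was searched as TATAAA and was found in 12.4% of windows. The GC box, GGGCGG, was found in 32.7%. The letters of AP-1, TGANTCA, were found in 6.75%, and those of ETS factors, CAGGAAG, in 10.8%. The letters of TEAD factors, CATTCC, were found in 12.6%, and the CACC box of Kruppel-like factors, CCACCC, was found in 28.1%. The Krt8 window held 1 ETS match at -204 and 2 CACC box matches at -160 and -137, the last of which lies among the bases not shown. The Krt18 window held no match. The Krt7 window held 4 GC boxes and 1 ETS match, at positions from -141 to -24. None of these lay in its exon-free stretch from -250 to -169. GENCODE places 162 of the 250 bases of this window in an exon, against 140 for Krt8 and 36 for Krt18. Matches and base composition include those bases. The windows differed in base composition, with 3 CpG dinucleotides and 58% GC in Krt8, 12 and 60.4% in Krt18 and 16 and 66% in Krt7, against medians of 6 and 52.4%. Krt8 and Krt7 each held an ETS match, at -204 and -99. No motif could be shared by all 3 windows, since the Krt18 window held no match. No window was available for Krt19, which was not searched.

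The libraries held between 9019615 and 11454638 counts on genes, and the 4 members received between 116 counts (Krt7) and 8482 counts (Krt8) in a library. Values are given in CPM, a gene's share of the counts on all genes in a library after scaling with TMM factors, and a limit of 3 counts corresponded to 0.248 to 0.343 CPM. The third untreated HDAC1–E63R library stood apart. Its mean correlation with the other libraries of its group was 0.937, against 0.954 to 0.981 for the other 17 libraries, and its summed level of 10 pluripotency markers was 7659 CPM against 5092 and 4734 CPM in the other libraries of its group. The members' OHT effects, interactions and untreated differences that use it are given with and without it, as are the counts over lists and markers. All 10 pluripotency markers were detected in every group. The total count of Hdac1 does not separate the transgene from the endogenous gene and did not check the labels. Hdac1 was at 200 to 210 CPM in untreated HDAC1-WT cells, 94.8 to 110 in untreated HDAC1–E63R cells and 97.8 to 104 in untreated HDAC1–Y48E cells, and after OHT it was at 168 to 179, 112 to 131 and 110 to 113 CPM. Hdac2 differed by -0.66 on the log2 scale after OHT in HDAC1-WT cells (SE 0.11, edgeR adjusted p = 0.0125), and by -0.21 and -0.07 in HDAC1–E63R and HDAC1–Y48E cells, and it was a DEG in none of the lines. Its means, untreated and after OHT, were 177 and 153 CPM in HDAC1–E63R cells and 151 and 144 in HDAC1–Y48E cells. The counts of Hdac2 therefore did not show the deletion in the mutant lines either.

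**Figure D1:**
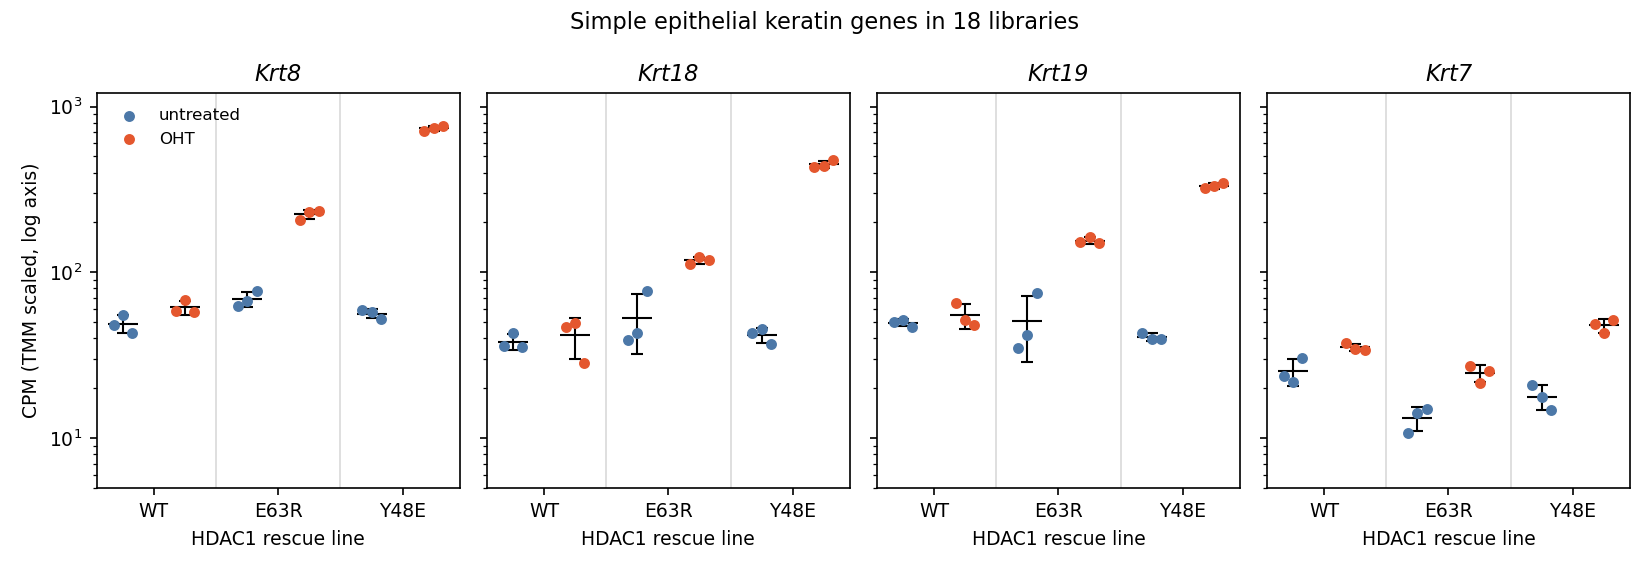
Level of each keratin gene in CPM on a log axis, by rescue line, with 3 libraries a group as points and the mean and SD in black. Krt8, Krt18 and Krt19 sat near 40 to 70 CPM in most untreated and HDAC1-WT libraries, were higher in HDAC1–E63R OHT libraries and highest in HDAC1–Y48E OHT libraries, while Krt7 lay between 10.7 and 51.8 CPM throughout.

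The first question was whether each line changed after OHT. A gene was called a DEG where its adjusted p was under 0.01 and it changed more than 2-fold. In HDAC1-WT cells no keratin of the 4 was a DEG by edgeR's quasi-likelihood test, in HDAC1–E63R cells Krt8, Krt18 and Krt19 rose between 2.23-fold and 3.27-fold, and in HDAC1–Y48E cells all 4 rose, between 2.69-fold and 13.1-fold. In bulk RNA, more cells of a kind and more RNA in each cell cannot be told apart.

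Krt8, the type II partner of the simple epithelial pair, was at 48.2, 55.2 and 43.1 CPM in untreated HDAC1-WT libraries and at 58.3, 68.5 and 57.9 after OHT. The groups did not overlap, but the log2 difference of 0.33 (SE 0.11, 95% interval 0.10 to 0.56) had an adjusted p of 0.259 by edgeR's quasi-likelihood test. HDAC1–E63R libraries held it at 62.7, 66.7 and 77.1 CPM untreated and at 208, 232 and 234 after OHT. Every OHT library lay above every untreated library, and the log2 rise was 1.71 (SE 0.11, edgeR adjusted p = 1.03e-09), and 1.80 without the library that stood apart. The HDAC1–Y48E values were 59.3, 57.4 and 52.3 CPM untreated and 712, 747 and 761 after OHT. The rise was 3.72 on the log2 scale (SE 0.12, edgeR adjusted p = 1.19e-15), and 3.20% of tested genes had a larger log2 value in this line. By mean CPM, not corrected for length, Krt8 was 4831st of the 18791 tested genes in untreated HDAC1-WT cells and 109th in HDAC1–Y48E OHT cells.

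Krt18, the type I partner of Krt8, was at 36.0, 42.9 and 35.3 CPM in untreated HDAC1-WT libraries and at 46.9, 49.4 and 28.3 after OHT. The groups overlapped, with the third OHT library below every untreated one, and the log2 difference was 0.13 (95% interval -0.29 to 0.54, edgeR adjusted p = 0.924). HDAC1–E63R libraries held it at 39.2, 43.1 and 77.6 CPM untreated and at 113, 124 and 119 after OHT. The untreated library that stood apart was the highest of its group and still lay below the OHT libraries. The log2 rise was 1.16 (SE 0.20, edgeR adjusted p = 0.000193), and it was 1.53 without that library. Without the first untreated HDAC1–E63R library it was 0.98 and no longer passed the 2-fold limit. HDAC1–Y48E libraries held Krt18 at 42.8, 45.5 and 36.9 CPM untreated and at 432, 438 and 476 after OHT, a log2 rise of 3.43 (SE 0.21, edgeR adjusted p = 3.15e-11).

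Krt19, a short type I keratin of ductal and other simple epithelia, was at 50.1, 51.9 and 46.9 CPM in untreated HDAC1-WT libraries and at 65.6, 51.5 and 47.9 after OHT. These groups overlapped, and the log2 difference was 0.15 (95% interval -0.23 to 0.52, edgeR adjusted p = 0.881). In HDAC1–E63R cells it was at 34.7, 41.6 and 75.2 CPM untreated and at 153, 163 and 149 after OHT, so that the third untreated library was again the highest of its group. The log2 rise was 1.62 (SE 0.18, edgeR adjusted p = 1.44e-06) and was 2.03 without that library. HDAC1–Y48E libraries held Krt19 at 43.1, 39.4 and 39.4 CPM untreated and at 322, 330 and 348 after OHT. The rise was 3.04 on the log2 scale (SE 0.19, edgeR adjusted p = 4.48e-11).

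Krt7, a type II keratin of ducts and glands, was the least abundant member in each of the 18 libraries but for the third HDAC1-WT OHT library, where it exceeded Krt18 in CPM. It was at 23.5, 21.9 and 30.6 CPM in untreated HDAC1-WT libraries and at 37.2, 34.3 and 34.0 after OHT. These groups did not overlap, with a log2 difference of 0.47 (95% interval 0.14 to 0.81, edgeR adjusted p = 0.271). In HDAC1–E63R cells it was at 10.7, 14.1 and 14.9 CPM untreated and at 27.1, 21.5 and 25.5 after OHT. The log2 difference of 0.91 (SE 0.17, edgeR adjusted p = 0.000522) passed the p limit and fell short of the 2-fold limit, which it reached at 1.00 without the third untreated library. In HDAC1–Y48E cells it was at 20.9, 17.7 and 14.7 CPM untreated and at 48.7, 42.9 and 51.8 after OHT, a log2 rise of 1.43 (SE 0.17, edgeR adjusted p = 5.27e-07).

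As counts, 0 of 4 members were DEGs in HDAC1-WT cells, where edgeR called 0.0532% of all tested genes. DESeq2 also called 0, and 2 of the 4 had an unadjusted p under 0.05 by edgeR. In HDAC1–E63R cells 3 of 4 rose, against 4.74% of all tested genes called up, and in HDAC1–Y48E cells 4 of 4 rose, against 10.8%. The OHT libraries lay above the untreated ones without overlap for 2 of 4 members in HDAC1-WT cells and for 4 of 4 in each mutant line, where 9.61%, 21.2% and 31.8% of all tested genes did so. The summed level of the 4 members was between 156 and 172 CPM in untreated HDAC1-WT cells and between 168 and 208 after OHT. It was between 147 and 245 CPM in untreated HDAC1–E63R cells and between 501 and 541 after OHT. In HDAC1–Y48E cells it was between 143 and 166 CPM untreated and between 1514 and 1637 after OHT.

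**Figure D2:**
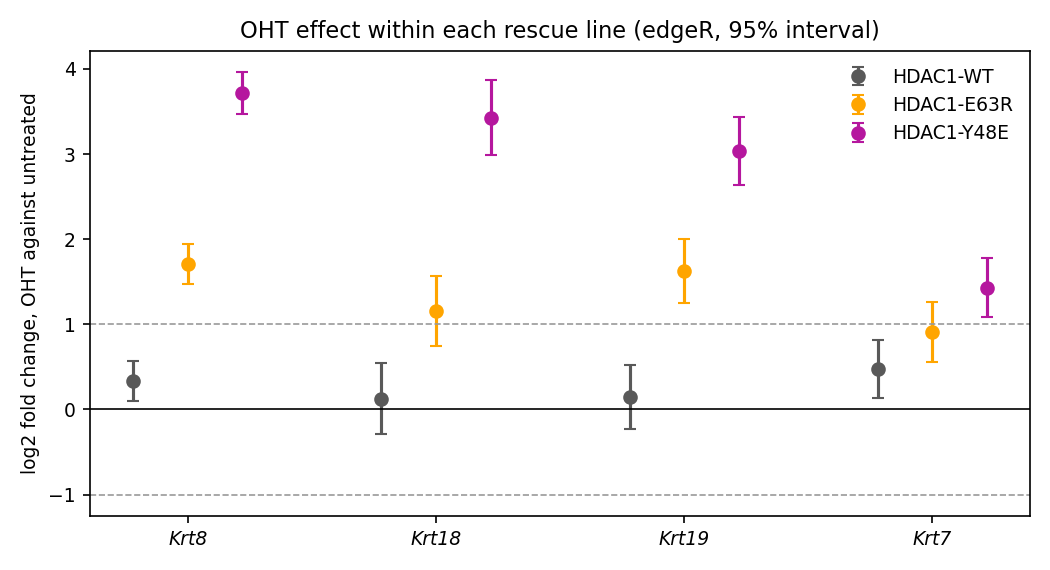
Log2 fold change after OHT within each line from the edgeR model, with 95% intervals, and dashed lines at the 2-fold limits. The HDAC1–Y48E values of Krt8, Krt18 and Krt19 lie between 3.04 and 3.72, above the HDAC1–E63R values of 1.16 to 1.71 and the HDAC1-WT values of 0.13 to 0.33, and the 3 lines lie closest together for Krt7.

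The second question was whether the response differed between lines, which was tested as an interaction. The OHT effect in HDAC1–Y48E cells exceeded that in HDAC1-WT cells by 3.38 on the log2 scale for Krt8 (SE 0.16, edgeR adjusted p = 3.80e-12), by 3.30 for Krt18 (SE 0.29, 2.60e-08) and by 2.89 for Krt19 (SE 0.26, 4.44e-08). For Krt7 the excess was 0.95 (SE 0.23, edgeR adjusted p = 0.00483), just under the 2-fold limit. So 3 of 4 members passed, against 4.65% of tested genes in that direction. Between HDAC1–E63R and HDAC1-WT cells, Krt8 passed with an excess of 1.38 (SE 0.16, edgeR adjusted p = 1.19e-05) and Krt19 with 1.48 (SE 0.26, 0.00108), against 1.25% of tested genes. Without the third untreated HDAC1–E63R library these were 1.46 and 1.88, and both passed. Krt18 had an excess of 1.03 (SE 0.28, edgeR adjusted p = 0.0318), which did not pass with all libraries and passed at 1.40 without that library (4.23e-08). Krt7 had an excess of 0.43 (95% interval -0.06 to 0.92, edgeR adjusted p = 0.314), and 0.53 without that library (0.150).

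The difference between the mutant lines was itself past the limits for 3 of 4 members, against 0.319% of all tested genes. HDAC1–Y48E cells exceeded HDAC1–E63R cells in the OHT effect by 2.01 for Krt8 (SE 0.16, edgeR adjusted p = 6.14e-08), by 2.27 for Krt18 (SE 0.28, 3.02e-05) and by 1.41 for Krt19 (SE 0.25, 0.00148), on the log2 scale. Without the third untreated HDAC1–E63R library the values lay between 1.01 (Krt19) and 1.92 (Krt8), and all 3 genes passed the limits. For Krt7 the difference was 0.52 (95% interval 0.02 to 1.01, edgeR adjusted p = 0.239), and 0.42 without that library (0.267). These interactions share libraries with the comparisons within lines and with each other.

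The third question was how the lines compared with the HDAC1-WT line in the same state. Before OHT, 0 of 4 members were DEGs in either mutant line against untreated HDAC1-WT cells, where edgeR called 7.65% of tested genes for HDAC1–E63R and 5.57% for HDAC1–Y48E. DESeq2 also called 0 in both, and 3 and 1 of the 4 members had an unadjusted p under 0.05 by edgeR. Krt8 was higher in untreated HDAC1–E63R cells by 0.49 on the log2 scale (SE 0.11, edgeR adjusted p = 0.00205), without overlap (17.1% of tested genes were higher in this way) and under the 2-fold limit, and by 0.41 without the third HDAC1–E63R library. Krt7 was lower there by a log2 value of -0.94 (SE 0.17, edgeR adjusted p = 0.000264), again without overlap (18.1% of tested genes were lower in this way), and by -1.03 without the third HDAC1–E63R library, which made it a DEG. Krt18 differed by 0.48 with that library (edgeR adjusted p = 0.0797) and by 0.12 without it (0.561), and Krt19 by 0.02 with it and by -0.38 without it (0.00547). In untreated HDAC1–Y48E cells the log2 differences were 0.20 for Krt8, 0.13 for Krt18, -0.29 for Krt19 and -0.51 for Krt7, with edgeR adjusted p-values between 0.0348 and 0.711. Krt19 and Krt7 were lower there without overlap, as were 19.8% of tested genes.

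After OHT, Krt8, Krt18 and Krt19 were higher in both mutant lines than in HDAC1-WT cells. The log2 differences were 1.87, 1.51 and 1.50 in the HDAC1–E63R line and 3.59, 3.43 and 2.60 in HDAC1–Y48E cells, with edgeR adjusted p-values of at most 4.64e-06. These were 3 of 4 members in each comparison, against 5.93% and 11% of tested genes called up. Krt7 departed from the others. Its mean of 24.7 ± 2.89 CPM (SD, n = 3) in HDAC1–E63R OHT cells lay below the 35.2 ± 1.79 CPM of HDAC1-WT OHT cells, with a log2 difference of -0.51 (SE 0.16, edgeR adjusted p = 0.0215) and no overlap, as for 24.4% of tested genes. In HDAC1–Y48E OHT cells Krt7 was at 47.8 ± 4.52 CPM, 0.44 above HDAC1-WT OHT cells on the log2 scale (SE 0.16, edgeR adjusted p = 0.0287). In neither line was Krt7 a DEG against OHT-treated HDAC1-WT cells.

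The order of the 6 groups by mean CPM was therefore alike for Krt8, Krt18 and Krt19 at the top and not at the bottom. For Krt8 the order was HDAC1-WT untreated, HDAC1–Y48E untreated, HDAC1-WT OHT, HDAC1–E63R untreated, HDAC1–E63R OHT and HDAC1–Y48E OHT. Neighbours among the lowest 4 groups did not differ beyond their spread for any of these 3 genes (edgeR adjusted p between 0.217 and 0.989), whereas the steps up to HDAC1–E63R OHT and from there to HDAC1–Y48E OHT each passed. The upper step was 1.72 for Krt8, 1.92 for Krt18 and 1.10 for Krt19 on the log2 scale. Krt7 ran from HDAC1–E63R untreated (13.2 ± 2.21 CPM) through HDAC1–Y48E untreated (17.8 ± 3.07), HDAC1–E63R OHT (24.7 ± 2.89), HDAC1-WT untreated (25.3 ± 4.61) and HDAC1-WT OHT (35.2 ± 1.79) to HDAC1–Y48E OHT (47.8 ± 4.52). No pair of neighbours in that order had an edgeR adjusted p under 0.01, and HDAC1–E63R OHT and HDAC1-WT untreated were 0.03 apart on the log2 scale (95% interval -0.31 to 0.37).

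The next comparison was between members, per kb of 1 transcript of each (1958, 1437, 1576 and 4094 bases for Krt8, Krt18, Krt19 and Krt7), since filaments hold as many type II as type I chains. A ratio of Krt8 to Krt18 RNA leaves out Krt7 and Krt19 and does not give the balance of protein chains. The ratio of Krt8 to Krt18 within a library was 0.984, 0.944 and 0.898 in untreated HDAC1-WT cells and 0.911, 1.02 and 1.50 after OHT. For HDAC1–E63R cells it was 1.17, 1.14 and 0.730 untreated and 1.36, 1.37 and 1.44 after OHT. For HDAC1–Y48E cells it was 1.02, 0.927 and 1.04 untreated and 1.21, 1.25 and 1.17 after OHT. The OHT ratios lay above the untreated ones without overlap in both mutant lines and overlapped in HDAC1-WT cells, and the exact two-sided permutation p was 0.1, 0.1 and 0.4, where 0.1 is the smallest that 3 against 3 libraries allow. The 1.50 belonged to the third HDAC1-WT OHT library, in which Krt18 was low, and the 0.730 to the third untreated HDAC1–E63R library, in which Krt18 was high.

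The other ratios were formed after these values were seen. Krt8 to Krt19 lay between 1.07 and 1.17 in untreated HDAC1–Y48E cells and between 1.76 and 1.82 after OHT. It overlapped between the states in HDAC1–E63R cells, at 0.826 to 1.45 and 1.10 to 1.26, and in HDAC1-WT cells, at 0.740 to 0.857 and 0.715 to 1.07. Krt8 to Krt7 lay between 5.94 and 7.42 in untreated HDAC1–Y48E cells and between 30.6 and 36.4 after OHT, and in HDAC1–E63R cells it was 9.89 to 12.2 and 16.1 to 22.6. In the HDAC1-WT line it overlapped, at 2.95 to 5.27 untreated and 3.27 to 4.17 after OHT. As shares of the summed level per kb, Krt19 was the largest of the 4 in untreated HDAC1-WT cells, at 35.4% ± 1.15 (SD, n = 3) beside 27.9% ± 1.52 for Krt8. In untreated HDAC1–Y48E cells Krt8 held 32.7% ± 0.247, Krt18 33.0% ± 1.80, Krt19 29.3% ± 1.61 and Krt7 4.92% ± 0.542, so that Krt19 was already below Krt8 and Krt18 in mean share before OHT. In HDAC1–Y48E OHT cells Krt8 held 41.4% ± 0.674, Krt18 34.2% ± 0.565, Krt19 23.2% ± 0.0360 and Krt7 1.28% ± 0.106. The HDAC1–E63R line differed, with Krt18 at 33.9% ± 2.95 untreated and 27.3% ± 0.176 after OHT. Krt19 was at 29.1% ± 3.47 and 32.6% ± 1.22 there, above Krt18 in mean share after OHT. In HDAC1-WT OHT cells Krt19 held 33.7% ± 3.67 and Krt8 30.5% ± 3.78. Krt7 has exons of 7049 bases in all its isoforms against 4094 in the transcript used, so its level per kb is the least certain.

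**Figure D3:**
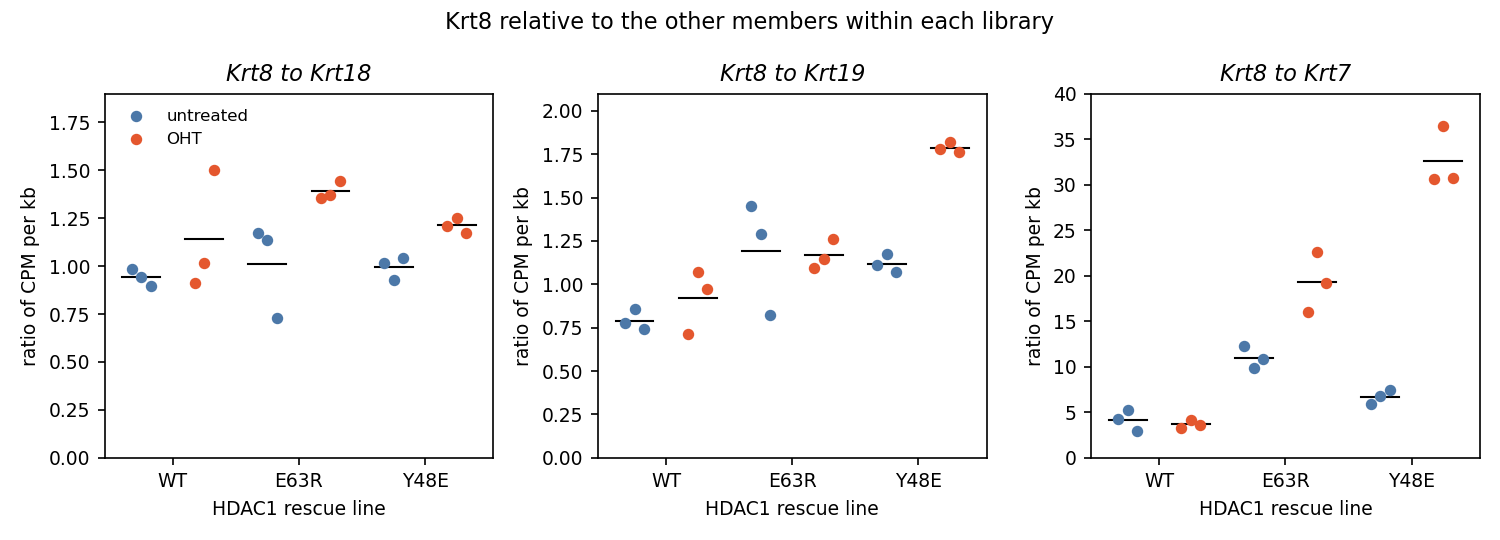
Ratio of Krt8 to Krt18, Krt19 and Krt7 in CPM per kb within each library, as points on axes that start at 0, with a line at the mean of each group. In HDAC1–Y48E cells all 3 ratios were higher after OHT without overlap, with Krt8 to Krt7 between 30.6 and 36.4 after OHT.

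Over the 18 libraries the log2 CPM of Krt8, Krt18 and Krt19 had Pearson coefficients of 0.97 to 0.98 with each other, and those of Krt7 with the other members were 0.60 to 0.67. The libraries fall into groups that differ in all 3 genes, so these are descriptions of the group pattern. After subtraction of the group means the coefficient was 0.73 for Krt8 with Krt18, 0.83 for Krt18 with Krt19 and 0.52 for Krt8 with Krt19, and the third untreated HDAC1–E63R library, high in both Krt18 and Krt19, is among the points. For Krt8 with Krt7 it was -0.01.

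Among 16677 tested genes with a mean of at least 1 CPM, those most like Krt8 over the 18 libraries were Rras2, a Ras-related GTPase, Gm28502, Krt18, Cldn6, a tight junction claudin of early epithelia, and Noct, with Pearson coefficients of 0.98 to 0.99. Those most like Krt18 were Krt8, Cldn6, Rras2, the kallikrein gene Klk10 and Krt19, at 0.97 to 0.98. Those most like Krt19 were Id1, an inhibitor of basic helix-loop-helix factors, Clu, which encodes clusterin, Rras2, Akr1cl and Cnn2, which encodes a calponin, at 0.97 to 0.99. Those most like Krt7 were Rundc3b, Zfp936, Oat, which encodes ornithine aminotransferase, Fam3b and Zfp809, at 0.93 to 0.95. By Spearman's coefficient none of the 5 was among the 5 most alike for Krt8, Krt18 or Krt19, and Oat and Fam3b were for Krt7. Over the 17 libraries without the one that stood apart, 4 of the 5 remained for Krt8, 2 for Krt18 and 3 each for Krt19 and Krt7. Rras2 was between 53.9 and 150 CPM and rose by 1.40 on the log2 scale in HDAC1–Y48E cells (SE 0.11, edgeR adjusted p = 7.03e-10). Id1 was between 36.3 and 392 CPM and rose by 3.36 (SE 0.18, edgeR adjusted p = 5.48e-12) there and by 1.70 in HDAC1–E63R cells (SE 0.17, 3.63e-07), or 2.07 without the third untreated library. Oat was between 69.2 and 116 CPM and was 0.58 higher in HDAC1–Y48E cells after OHT (SE 0.10, edgeR adjusted p = 4.29e-05), which is under the 2-fold limit.

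Genes within 100 kb of a member were chosen by position, outside the rule for named genes. Around Krt8 and Krt18 4 other genes were tested, and 0 of them rose in either mutant line by edgeR or by DESeq2, with 2 of the 4 at an unadjusted p under 0.05 in each. Of all tested genes 4.74% and 10.8% rose in these lines, so that few or none of 4 genes would be called at that share. Without the third untreated HDAC1–E63R library 0 of the 4 were called there. Krt79 differed by 0.93 in HDAC1–E63R cells (SE 0.44, edgeR adjusted p = 0.125). In the HDAC1–Y48E line Krt79 differed by 0.14 (SE 0.42, edgeR adjusted p = 0.817), Spryd3 by -0.22 (SE 0.16, 0.292) and Eif4b, a translation initiation factor gene, by -0.97 (SE 0.08, 5.07e-09), on the log2 scale. Tns2, which encodes a tensin, fell by 1.08 (SE 0.24, edgeR adjusted p = 0.000953). Krt80 was the 1 tested neighbour of Krt7, and it rose in both mutant lines, though not in HDAC1–E63R cells without the third untreated library. Its HDAC1–E63R OHT mean of 2.09 ± 1.08 CPM lay below the 2.84 ± 0.283 CPM of untreated HDAC1-WT cells. Beside Krt19, Krt14 rose in both mutant lines and Krt16 did not pass the test.

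**Figure D4:**
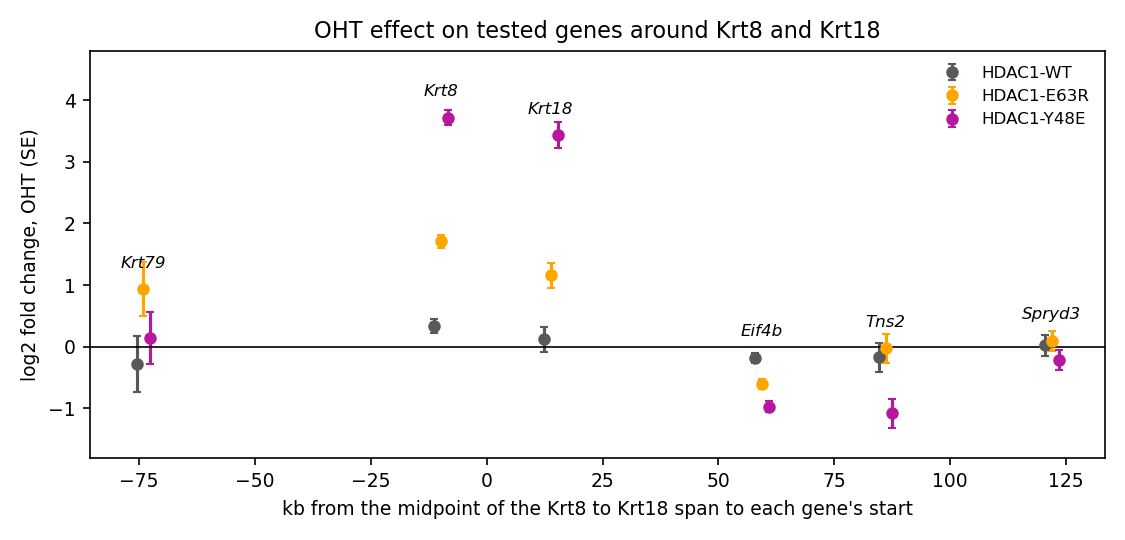
Log2 fold change after OHT (points, with SE) of the tested genes around Krt8 and Krt18 against the distance of each start from the midpoint of the region from Krt8 to Krt18, by line. Krt8 and Krt18 stand at 3.72 and 3.43 in HDAC1–Y48E cells and the 4 other genes at 0.14 or below in that line, while Krt79 stands at 0.93 in HDAC1–E63R cells.

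Other genes of keratin filaments and simple epithelia were described from lists, with the OHT effect within each line. In HDAC1-WT cells 0 of the 84 tested genes of 6 lists were DEGs by edgeR or by DESeq2, and 14 had an unadjusted p under 0.05 by edgeR. In the mutant lines the counts are to be read against the 4.74% (HDAC1–E63R) and 10.8% (HDAC1–Y48E) of all tested genes that were called up, against the 1.18% and 5.84% called down, and against medians over all tested genes of 0.03 and 0.05 on the log2 scale. Without the third untreated HDAC1–E63R library, a choice made after seeing the data, 4.71% of tested genes rose and 1.03% fell in that line, and of the 6 lists the other type II keratins alone changed in their counts.

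Of the other type II keratins, 7 of 23 genes in the tables were tested, 3 rose in each mutant line and none fell. The medians were 2.52 in the HDAC1–E63R line and 2.96 in HDAC1–Y48E cells, also with genes absent from a group set at their lower bound. Krt5, the type II keratin of basal keratinocytes, had 0 counts in all untreated libraries of both mutant lines. It reached 11.4 ± 0.867 CPM after OHT in the HDAC1–E63R line and 15.3 ± 0.885 in HDAC1–Y48E cells (SD, n = 3), at least 36.0-fold and 46.3-fold higher than a mean of 3 counts a library. In HDAC1-WT cells Krt5 was at 0 to 0.200 CPM untreated and 0.529 to 0.815 after OHT. That log2 difference was 3.18 (SE 0.75, edgeR adjusted p = 0.0930). Krt80, a type II keratin of many epithelia, rose by 2.52 (SE 0.65, edgeR adjusted p = 0.00650) and 3.32 (SE 0.55, 4.45e-05) on the log2 scale. The HDAC1–E63R mean went from 0.356 ± 0.401 to 2.09 ± 1.08 CPM, and the HDAC1–Y48E mean from 0.910 ± 0.595 to 9.23 ± 1.74 (SD, n = 3). HDAC1-WT cells held Krt80 at 2.84 ± 0.283 CPM untreated and 4.41 ± 0.476 after OHT. The HDAC1–E63R OHT mean thus lay below both HDAC1-WT means, and the HDAC1–Y48E OHT mean lay above them. The third gene was Krt6a, named after its values were seen, with 0 or 1 count in each untreated library of both lines, 11 to 19 counts after OHT in HDAC1–E63R cells and 17 to 35 in HDAC1–Y48E cells. Without the third untreated HDAC1–E63R library 1 of the 7, Krt5, rose in that line, since Krt80 (1.99, edgeR adjusted p = 0.0119) and Krt6a (0.0186) no longer passed, and the median was 1.99.

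Of the other type I keratins, 8 of 25 genes were tested, 3 rose in each mutant line, and 1 fell in HDAC1–Y48E cells. The medians were 1.49 and 2.18, or 1.21 and 2.18 with bounds. Krt14, the partner of Krt5, had 0 counts in untreated HDAC1–Y48E libraries and reached 29.0 ± 1.87 CPM after OHT, at least 87.6-fold higher. In HDAC1–E63R cells it had 0 to 3 counts untreated and 11.4 ± 1.22 CPM after OHT (edgeR adjusted p = 2.96e-07). HDAC1-WT libraries held Krt14 at 0 CPM untreated and at 0 to 0.385 CPM after OHT. Krt17, induced in stressed epidermis, rose from 8.76 ± 1.02 to 46.0 ± 8.52 CPM in HDAC1–Y48E cells and, in HDAC1–E63R cells, by a log2 value of 1.30 (SE 0.20, edgeR adjusted p = 5.95e-05). Krt20, a keratin of intestinal epithelium, rose by 2.78 (SE 0.71, edgeR adjusted p = 0.00593) and 2.89 (SE 0.66, 0.00125). Krt10, of suprabasal epidermis, fell by 1.61 in HDAC1–Y48E cells (SE 0.41, edgeR adjusted p = 0.00318). After OHT in HDAC1–Y48E cells each of these keratins stayed below the 333 ± 13.5 CPM of Krt19, the least abundant of the 3 most responsive members. Krt17 came to 46.0 CPM, close to the 47.8 CPM of Krt7.

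All 13 other intermediate filament genes were tested, with 1 rising in HDAC1–E63R cells, 3 rising in HDAC1–Y48E cells and none falling. Their medians were 0.16 and 0.22. The 3 were the neurofilament genes Nefh and Nefm and the progenitor filament gene Nes, which rose by 1.68, 1.56 and 1.19 in HDAC1–Y48E cells, with edgeR adjusted p-values of at most 3.17e-06. Nefm also rose in HDAC1–E63R cells, by 1.17 (SE 0.21, edgeR adjusted p = 0.000377).

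Of 16 genes for proteins that link or bind keratin filaments, all tested, 2 rose in HDAC1–E63R cells, and 3 rose and 1 fell in HDAC1–Y48E cells, with medians of 0.33 and 0.19. Ppl, which encodes the plakin periplakin, rose by 1.59 (SE 0.17, edgeR adjusted p = 6.31e-07) and 1.88 (SE 0.17, 1.67e-08). Fam83h, whose product binds keratins, rose by 1.22 and 1.04, and Pkp3, a desmosomal plakophilin gene, rose by 1.01 in HDAC1–Y48E cells. Pkp3 was at 28.6 ± 3.57 CPM there after OHT, beside 24.2 ± 2.08 in HDAC1-WT OHT cells. Eppk1, which encodes epiplakin, fell by 1.29 in HDAC1–Y48E cells (SE 0.29, edgeR adjusted p = 0.00105), from 11.6 ± 3.02 to 4.75 ± 0.683 CPM. Before OHT Eppk1 was already lower in HDAC1–Y48E cells than the 36.0 ± 2.20 CPM of HDAC1-WT cells. Of 18 surface and junction genes of simple epithelia, 2 rose in the HDAC1–E63R line and 3 in HDAC1–Y48E cells, with medians of -0.20 and 0.15. Cldn6 rose from 67.1 ± 3.49 to 257 ± 17.6 CPM and Marveld2, a tricellular junction gene, from 5.25 ± 1.75 to 16.9 ± 1.07 CPM in HDAC1–Y48E cells. Dsc2, a desmosomal cadherin gene named after its values were seen, rose in HDAC1–E63R cells by a log2 value of 1.33 (SE 0.26, edgeR adjusted p = 0.000729).

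Of 24 epithelial regulators, 22 were tested, 2 rose in HDAC1–E63R cells, and 3 rose and 3 fell in HDAC1–Y48E cells, with medians of 0.36 and 0.10. Grhl2, an activator of epithelial genes, rose by 1.05 (SE 0.16, edgeR adjusted p = 7.30e-05) and 1.37 (SE 0.16, 4.30e-07), and Gata3, a regulator of trophoblast and luminal epithelia, rose by 2.64 and 1.86. After OHT Grhl2 was at 26.6 ± 1.60 and 55.0 ± 6.95 CPM (SD, n = 3). HDAC1-WT cells held Grhl2 at 29.9 ± 3.57 CPM untreated and 25.3 ± 4.83 after OHT. Gata3 reached 6.10 ± 2.37 and 8.86 ± 2.61 CPM, above the 2.44 ± 0.486 and 3.31 ± 0.729 of HDAC1-WT cells. Eomes, of trophoblast and mesendoderm, rose by 1.06 in HDAC1–Y48E cells, to 15.0 ± 1.11 CPM. That mean lay below the 20.4 ± 4.42 CPM of untreated HDAC1-WT cells and their 26.3 ± 4.41 after OHT. Hnf4a, a regulator of liver and gut epithelium, fell by 1.27 in HDAC1–Y48E cells. The other falls there were Elf3, by 1.03, and Grhl3, by 1.04, both named after their values were seen.

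**Figure D5:**
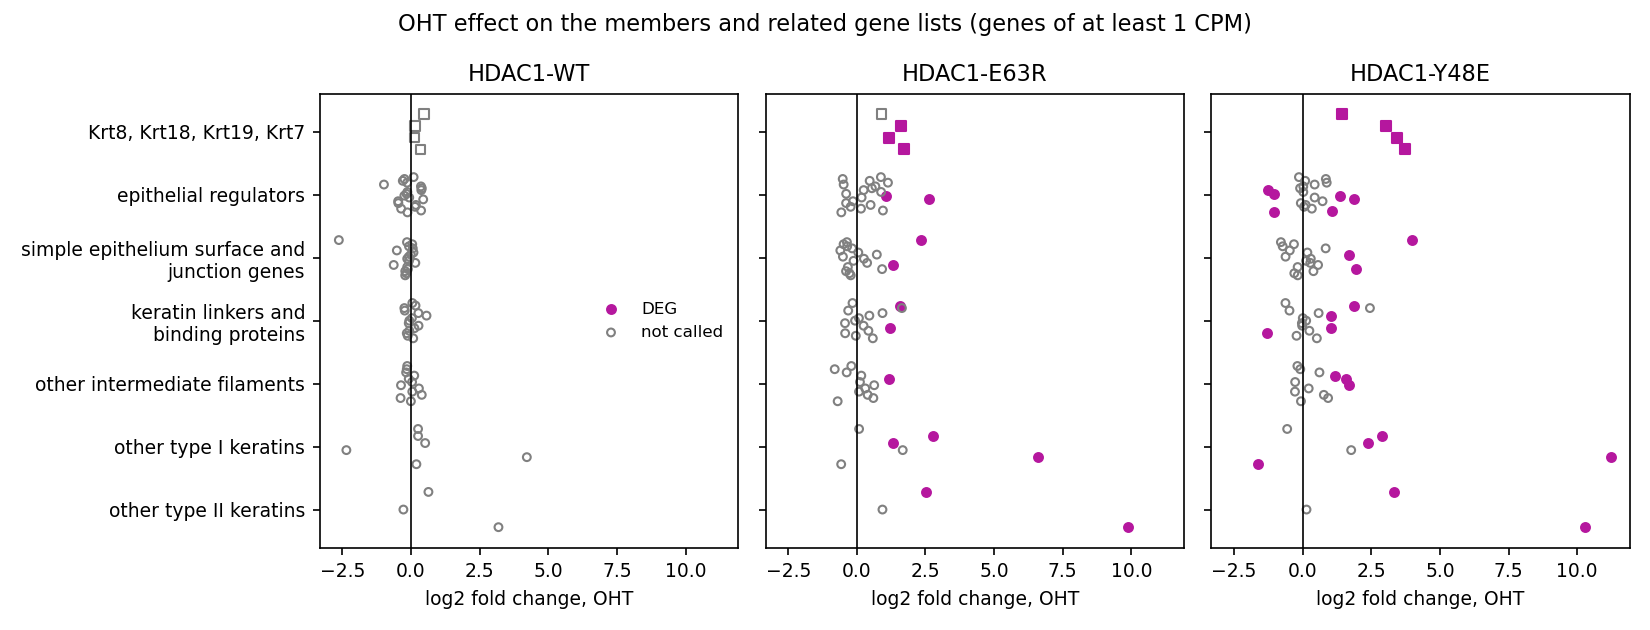
Log2 fold change after OHT of the 4 keratin members (squares) and of the genes of 6 lists with a mean of at least 1 CPM (circles), filled where a gene was a DEG, in each line. No gene is filled in HDAC1-WT cells, and in HDAC1–Y48E cells the members lie between 1.43 and 3.72 while most genes of the linker, junction and regulator lists lie near 0. Values of Krt5 and Krt14 are fitted against groups at or near 0 counts.

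Markers of other cell types moved in the same comparisons. The marker counts, here and in the next paragraph, are to be read against the shares of all tested genes. These were 4.74% (HDAC1–E63R) and 10.8% (HDAC1–Y48E) called up, and 1.18% and 5.84% called down. The summed level of the 10 pluripotency markers was 7030 to 7289 CPM in untreated HDAC1-WT cells and 7254 to 7557 after OHT. It was 5484 to 5620 CPM in untreated HDAC1–Y48E cells and 2279 to 2413 after OHT, where 8 of 10 fell. In HDAC1–E63R cells it was 4734 to 7659 CPM untreated and 3814 to 4127 after OHT, where 1 of 10 fell, and 0 of 10 without the third untreated library. Of 8 epidermis markers, which include Krt5, Krt14, Krt1 and Krt10, 5 rose in HDAC1–E63R cells, and 6 rose and 1 fell in HDAC1–Y48E cells, where the sum went from 73.6 to 93.2 CPM untreated to 303 to 328 after OHT. The epidermis sum was 87.8 to 129 CPM in untreated HDAC1–E63R cells and 314 to 356 after OHT. In HDAC1-WT cells it was 140 to 176 CPM untreated and 153 to 167 after OHT.

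Of 10 trophoblast markers 8 were tested, 3 rose and 1 fell in HDAC1–E63R cells, and 4 rose in HDAC1–Y48E cells. Their sum was 91.0 to 96.9 CPM in untreated HDAC1–E63R cells and 178 to 191 after OHT. It was 86.1 to 101 CPM in untreated HDAC1–Y48E cells and 127 to 137 after OHT, and in HDAC1-WT cells 212 to 227 CPM untreated and 229.6 to 259 after OHT. Tpbpa was at 0 in every library of both mutant lines, and Prl3d1 was at 0 in every untreated library. Of 9 tested primitive endoderm markers 3 rose in the HDAC1–E63R line and 2 in HDAC1–Y48E cells, with sums of 84.1 to 162 and 228 to 240 CPM in the first line and 254 to 280 and 306 to 324 CPM in the second. In HDAC1-WT cells the primitive endoderm sum was 234 to 245 CPM untreated and 215 to 262 after OHT, a range that holds the HDAC1–E63R OHT sums. Of 4 mesothelium markers 1 and 3 rose, of 5 tested fibroblast markers 2 and 2 rose, and of 5 neural markers 0 and 1 rose while 1 and 3 fell. The mesothelium sum, untreated and after OHT, was 27.2 to 32.2 and 26.2 to 40.8 CPM in HDAC1-WT cells. It was 8.01 to 11.5 and 28.4 to 40.6 in HDAC1–E63R cells, and 9.89 to 13.6 and 44.9 to 54.4 in HDAC1–Y48E cells. Fibroblast sums were 54.3 to 64.2 and 71.7 to 75.9, 41.0 to 47.8 and 64.6 to 74.7, and 52.7 to 55.5 and 103 to 112 CPM in these lines. Neural sums were 69.8 to 71.0 and 72.3 to 90.9 CPM in HDAC1-WT cells and 72.2 to 87.1 and 103 to 108 in HDAC1–E63R cells. In HDAC1–Y48E cells they were 86.1 to 91.0 and 96.4 to 115. The neural sums were thus higher after OHT, while more neural markers fell than rose in the mutant lines. Without the third untreated HDAC1–E63R library the counts in that line were 3 up and 0 down for trophoblast, 1 up for primitive endoderm, and 1 up and 2 down for neural markers, and those for epidermis, mesothelium and fibroblasts were as given. The part of any of these in the keratin values was not tested.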

How the data were processed

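RNA-seq libraries of 18 samples, 3 for each of 6 groups, were compared. Per the labels, the authors deposited 1 table of whole-number counts per gene for each library. The submitters' processing notes name HISAT2 2.1.0, SAMtools 1.9, HTSeq and mm10, and use of strand in counting is not given in the sources used here. The 5 entries that name no gene held 59.4% to 61.2% of all entries counted and were left out.

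Counts were fitted with edgeR 4.0.16 in R 4.3.3 (TMM factors, filterByExpr by group, quasi-likelihood F-test) in 1 model of 6 group means over the 18 libraries. P-values were adjusted by Benjamini and Hochberg over the 18791 tested genes of each comparison, and genes past 0.01 with more than a 2-fold change were called DEGs. The code was tested on simulated data. Intervals on counts, and the limit of 3 counts, cover counting error only. Gene models are GENCODE M21 and promoter windows RefSeq. The fits were repeated with relative log expression factors, without the filter, with the replicate block, with only the libraries compared, with DESeq2 1.42.0, with an adjusted p limit of 0.05, with Krt8-ps added to Krt8, and with each library left out in turn. The counts over lists, markers and neighbours and the choice of most alike genes were also repeated without 1 library, the third untreated HDAC1–E63R library, a choice made after seeing the data.

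The members and lists were chosen with earlier results of these data known. Genes were named as members, copies of members, the 5 genes most like each member by Pearson's coefficient, Hdac1, Hdac2, and up to 4 DEGs of each list with the largest change in HDAC1–Y48E cells and a mean of at least 1 CPM. Replicate numbers were not used to pair the libraries in the main fit. Same-numbered untreated and OHT libraries of a line had correlations of deviations from their group means between -0.033 and 0.067. These values showed no shared deviation within a line, and they cannot tell whether the libraries were paired by design. The values of 1 gene that this rule names are not reported here.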

Additional observations from a re-analysis of the deposited data

Results flagged for a closer look

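The OHT effect differed between lines, tested as an interaction with edgeR's quasi-likelihood test, for 3 of the 4 members in at least 1 pair of lines, where 1.25% (HDAC1–E63R over HDAC1-WT), 4.65% (HDAC1–Y48E over HDAC1-WT) and 0.319% (HDAC1–Y48E over HDAC1–E63R) of tested genes passed in that direction. For Krt8 the effect in HDAC1–E63R cells exceeded that in HDAC1-WT cells by 1.38 on the log2 scale, and that in HDAC1–Y48E cells exceeded it by 3.38. The mutant lines differed from each other by 2.01. For Krt19 the same differences were 1.48, 2.89 and 1.41. For Krt18 the effect in HDAC1–Y48E cells exceeded that in HDAC1-WT cells by 3.30 and that in HDAC1–E63R cells by 2.27, whereas its excess of 1.03 in HDAC1–E63R over HDAC1-WT cells did not pass (edgeR adjusted p = 0.0318). Krt7 passed in none of the 3 pairs. The interactions share libraries and are not independent of each other.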

How the results depend on the processing

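Of 40 values (4 members in 10 comparisons), 31 kept their direction and their side of the limits under every alternative run. All 40 did so with relative log expression factors and with DESeq2, and all 10 of Krt8 with Krt8-ps added. The Krt18 excess of HDAC1–E63R over HDAC1-WT passed at 1.04 without the filter (edgeR adjusted p = 4.18e-06, where the fit gave an infinite prior degree of freedom) and at 1.03 with the limit of 0.05. With only the libraries compared, 3 values no longer passed: Krt18 in HDAC1–E63R cells (1.15, edgeR adjusted p = 0.0236), the Krt19 excess of HDAC1–E63R over HDAC1-WT (1.47, 0.0140, leaving 1 member called) and that of HDAC1–Y48E over HDAC1–E63R (1.42, 0.0114). These fits hold fewer libraries.

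The replicate block, used although same-numbered libraries of a line showed no shared deviation, changed no member's call, with Krt8 at 1.71 in HDAC1–E63R cells. It took the DEGs over all genes from 1111 to 1031 there and from 10 to 5 in HDAC1-WT cells.

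With each library left out in turn, 300 of 312 values kept direction and call. The ranges were 0.98 to 1.53 for Krt18 and 0.77 to 1.00 for Krt7 in HDAC1–E63R cells, 0.82 to 1.40 for the Krt18 excess of HDAC1–E63R over HDAC1-WT, 0.78 to 1.08 for the Krt7 excess of HDAC1–Y48E over HDAC1-WT, and -1.03 to -0.77 for Krt7 between the untreated HDAC1–E63R and HDAC1-WT lines, with 0 to 1 members called. The Krt7 excess passed without the first or second untreated HDAC1-WT library, the first untreated HDAC1–Y48E library or the second HDAC1–Y48E OHT library, and the untreated Krt7 difference passed at -1.02 without the second untreated HDAC1-WT library. The direction turned for Krt18 in HDAC1-WT cells (-0.019 without the second OHT library, range -0.02 to 0.34) and for Krt19 between the untreated HDAC1–E63R and HDAC1-WT lines (-0.0029 without the third HDAC1-WT library and -0.38 without the third HDAC1–E63R library, range -0.38 to 0.23). The log2 change of the Krt8 to Krt18 ratio in HDAC1-WT cells ran from 0.033 to 0.39. Krt7, at 116 to 577 counts a library, was the least deeply counted member. The lists were also counted without the third untreated HDAC1–E63R library, an alternative chosen after seeing the data. In HDAC1–E63R cells the other type II keratins that rose went from 3 to 1 and the primitive endoderm markers from 3 to 1. Falls went from 1 to 0 for pluripotency and for trophoblast markers and from 1 to 2 for neural markers, of which 1 rose instead of 0, and Krt80 beside Krt7 no longer passed. The counts of the other lists were the same. The cause of these changes was not tested.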
